A study of Rattus norvegicus with 10 samples.

Results

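The 10 genes described here belong to natural killer (NK) cells and to the killing machinery that these cells share with cytotoxic T cells. They are the granule proteases Gzma, Gzmb, Gzmk and Gzmm, the pore-forming protein Prf1, the granule membrane protein Nkg7, the receptors Klrd1, Ncr1 and Ncr3, and the death ligand Fasl. They were found on the array by matching probe accessions to the RefSeq gene table, Fasl under its current symbol Faslg. All 10 had a value on every array, each from 1 probe, among 13426 genes with a symbol. Expression was measured in the liver of 10 male Wistar rats, 1 array per rat, and the number of arrays limits the precision of every value. The 3 control rats were not irradiated. The 3 TBI rats received total-body irradiation (TBI) from a cobalt source, given on the labels as 6.5 Gy at 2 Gy/min, while the methods of the study name other doses. The 4 MASM + TBI rats received the same irradiation after MASM, a derivative of the plant alkaloid matrine, given into the stomach in water at 30 mg/kg a day on each of the 3 preceding days. Livers were taken at 24 h. For its microscopy the study describes MASM or water before irradiation, and livers for the arrays came from all of its groups; whether control rats had water too is not stated. Ages are not given in the sources used here, and no arrays of rats given MASM without irradiation were analysed.

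NK cells are lymphocytes that kill infected, transformed or stressed cells without earlier exposure to an antigen, and they make up an unusually large part of the lymphocytes of the liver. On contact with a target they release granules in which perforin and granzymes are stored. Perforin opens the way into the target cell, and granzymes, a family of serine proteases, then start its death from within. A separate route runs through Fas ligand on the killer cell, which binds the receptor Fas on the target.

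In whole liver, 6 of the 10 genes (Gzma, Gzmb, Gzmk, Gzmm, Prf1 and Nkg7) stood well above background in each of the rats, and with Klrd1 and Fasl 8 did so on all arrays of at least 1 group. Ncr1 was well above background on 2 TBI arrays and on no other array, and Ncr3 on 1 MASM + TBI array and on no other. The weakest signal counted as well above background was lower on TBI arrays (2.54 to 3.16) than on control (3.71 to 4.004) and MASM + TBI arrays (3.68 to 4.10), so counts of arrays differ between groups for dim genes at the same signal. Levels are given as log2 intensities after quantile normalization between arrays, and levels of different probes were not compared as amounts of RNA. Where a gene is named as the brightest of a list, its probe gave the strongest signal. Because whole tissue was measured, fewer cells carrying a transcript and less of that transcript per cell cannot be told apart. The labelled tissue was checked on 10 hepatocyte genes, all of which were well above background on all arrays of at least 1 group, with transferrin (Tf) between 18.09 and 18.29 over the 10 rats.

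**Figure D1:**
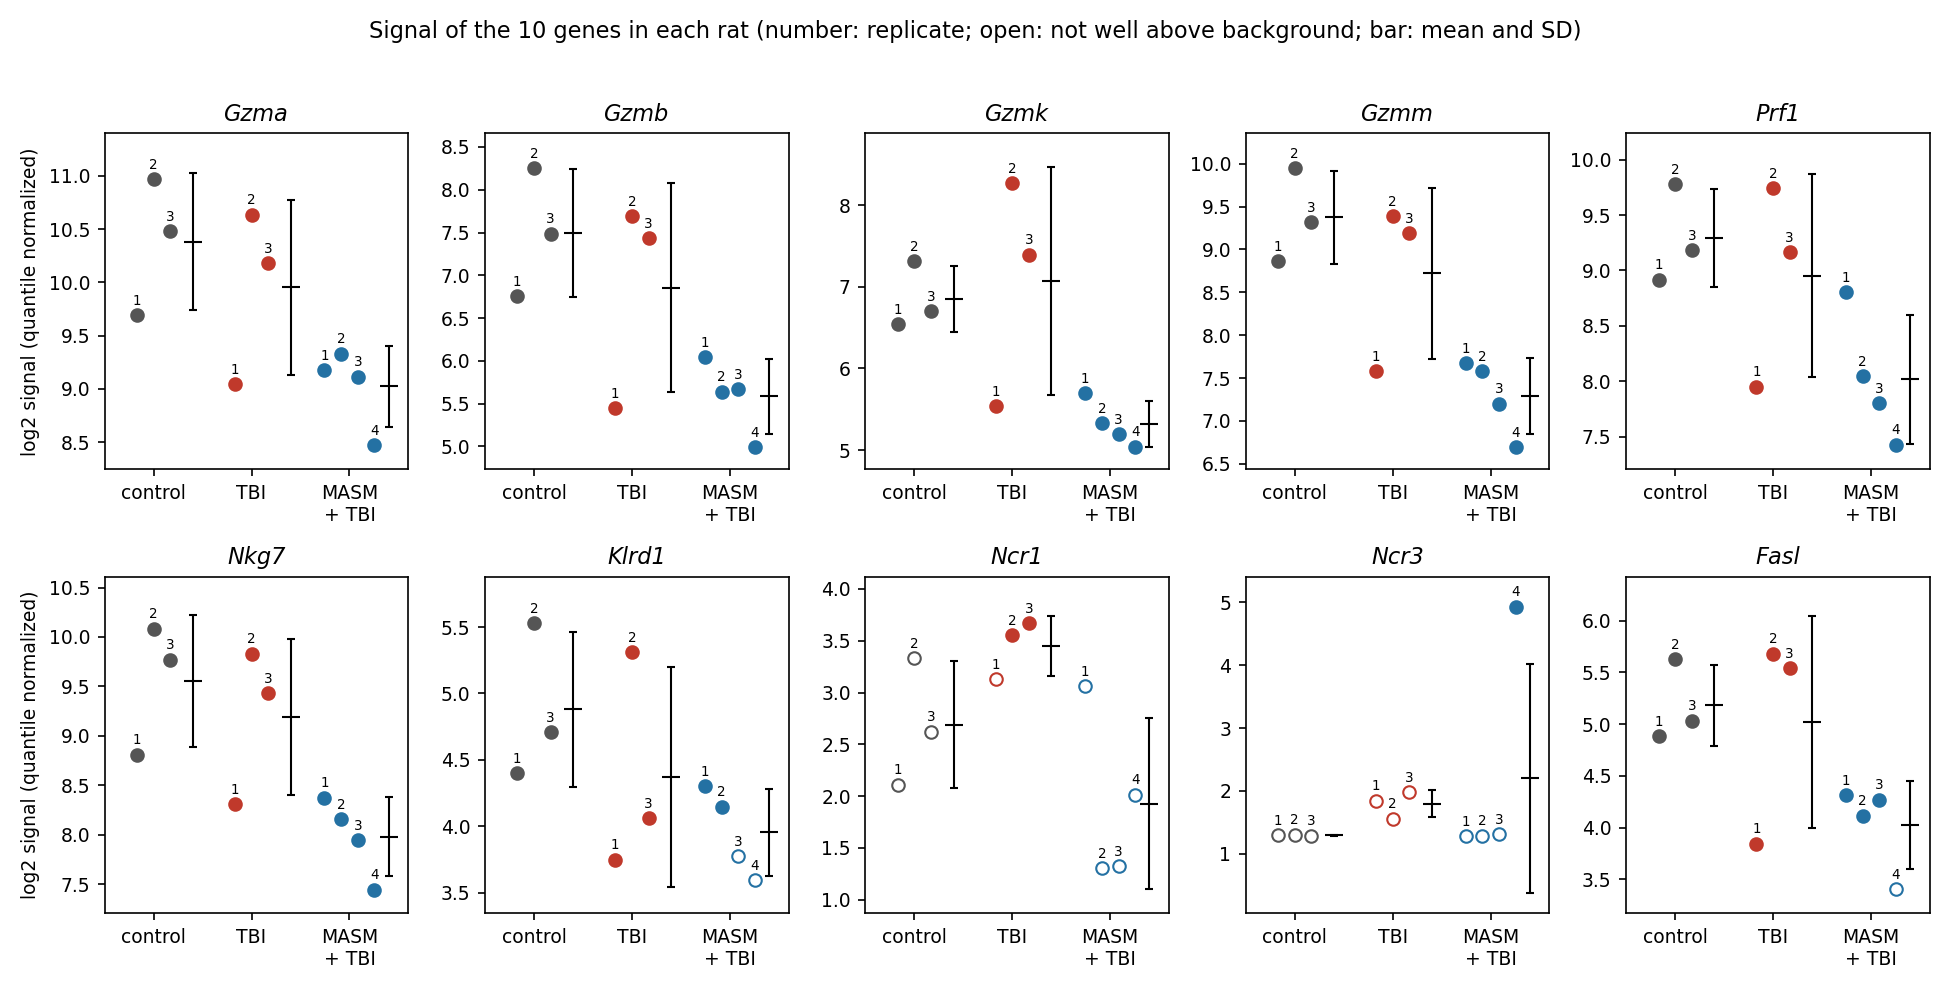
Log2 signal (vertical axis, quantile normalized) of the 10 genes in each control, TBI and MASM + TBI rat (horizontal axis), with replicate numbers beside the points, open points where the signal was not well above background, and bars for mean and SD. For 8 genes every MASM + TBI rat lies below every control rat, and TBI rat 1 lies below TBI rats 2 and 3, as for Gzmb at 5.45 against 7.69 and 7.43.

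Gzma, a protease that cuts after basic residues, gave log2 signals of 9.69, 10.97 and 10.48 in control rats 1 to 3, of 9.04, 10.64 and 10.18 in TBI rats 1 to 3, and of 9.18, 9.33, 9.11 and 8.47 in MASM + TBI rats 1 to 4. All 4 MASM + TBI rats were below the lowest control rat, and TBI rat 1 was among them while TBI rats 2 and 3 were at the level of the controls. The group means were 10.38 ± 0.64 (SD, n = 3) in control, 9.95 ± 0.82 (SD, n = 3) in TBI and 9.02 ± 0.38 (SD, n = 4) in MASM + TBI rats. The MASM + TBI mean was 2.56-fold below the control mean, a log2 difference of -1.36 with a 95% interval from -2.34 to -0.38 (limma, adjusted p = 0.144).

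Gzmb, the protease that cuts after aspartate and activates caspases in the target cell, gave 6.75, 8.25 and 7.49 in the control rats, 5.45, 7.69 and 7.43 in the TBI rats, and 6.04, 5.64, 5.67 and 4.99 in the MASM + TBI rats. The highest MASM + TBI rat remained below the lowest control rat, and among the irradiated rats without MASM the values of rats 2 and 3 stood apart from that of rat 1. The means were 7.50 ± 0.75 (SD, n = 3), 6.86 ± 1.23 (SD, n = 3) and 5.59 ± 0.44 (SD, n = 4) in control, TBI and MASM + TBI rats. The log2 difference between MASM + TBI and control rats was -1.91, with a 95% interval from -3.22 to -0.60 and an adjusted p of 0.127 (limma), and -0.83 with a normexp background correction. Whether the Gzmb probe also binds transcripts of the related rat granzymes was not tested.

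Gzmk, a second protease that cuts after basic residues, gave 6.54, 7.31 and 6.70 in the control rats, 5.54, 8.27 and 7.39 in the TBI rats, and 5.70, 5.33, 5.19 and 5.04 in the MASM + TBI rats. It was the granzyme with the widest spread among TBI rats, 2.73 log2 units from rat 1 to rat 2, and TBI rats 2 and 3 were both above the highest control rat. The 4 MASM + TBI rats differed by only 0.66 log2 units and were all below the control rats. Their mean of 5.31 ± 0.28 (SD, n = 4) compared with 6.85 ± 0.41 (SD, n = 3) in control and 7.07 ± 1.40 (SD, n = 3) in TBI rats. The log2 difference from TBI rats was -1.76 with a 95% interval from -3.03 to -0.48 (limma, adjusted p = 0.166), and that from control rats was -1.54 (adjusted p = 0.203). With normexp these differences were -0.76 and -0.58.

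Gzmm, the granzyme that cuts after methionine and leucine, gave 8.87, 9.94 and 9.32 in the control rats, 7.58, 9.39 and 9.19 in the TBI rats, and 7.68, 7.58, 7.20 and 6.70 in the MASM + TBI rats. All MASM + TBI rats were more than 1 log2 unit below the lowest control rat, and TBI rat 1 was within their range. The means were 9.38 ± 0.54 (SD, n = 3) in control, 8.72 ± 0.99 (SD, n = 3) in TBI and 7.29 ± 0.44 (SD, n = 4) in MASM + TBI rats. Of the 10 genes it had the lowest adjusted p in any comparison, 0.0564 for MASM + TBI against control (limma), with a log2 difference of -2.09, a 95% interval from -3.16 to -1.01 and a signal 4.25-fold lower. With normexp the difference was -1.38.

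Prf1, perforin itself, gave 8.92, 9.78 and 9.18 in the control rats, 7.95, 9.74 and 9.16 in the TBI rats, and 8.80, 8.04, 7.80 and 7.43 in the MASM + TBI rats. MASM + TBI rat 1 came close to the lowest control rat, and the other rats of its group were well below it. The log2 difference between MASM + TBI and control rats was -1.27, with a 95% interval from -2.34 to -0.21 and an adjusted p of 0.206 (limma). Nkg7, a membrane protein of cytotoxic granules, gave 8.81, 10.09 and 9.77 in the control rats, 8.31, 9.83 and 9.43 in the TBI rats, and 8.37, 8.15, 7.94 and 7.44 in the MASM + TBI rats. Its pattern over the rats was that of the granzymes, with no overlap between MASM + TBI and control rats and with TBI rat 1 beside the MASM + TBI rats. Its log2 difference was -1.58 against control rats, with a 95% interval from -2.56 to -0.60 (limma, adjusted p = 0.0975). Against TBI rats the Nkg7 difference was -1.21, with an interval from -2.19 to -0.23 (limma, adjusted p = 0.202).

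Klrd1, the CD94 chain that pairs with NKG2 receptors and recognises a non-classical class I molecule, gave 4.40, 5.53 and 4.71 in the control rats, 3.75, 5.31 and 4.06 in the TBI rats, and 4.30, 4.15, 3.78 and 3.59 in the MASM + TBI rats. It was well above background on all control and TBI arrays and on 2 of the 4 MASM + TBI arrays, but the signal of TBI rat 1 that passed was below that of MASM + TBI rat 3 that did not. The MASM + TBI rats were again all below the control rats, by a log2 difference in means of -0.93 whose 95% interval, from -1.86 to 0.0082, reached 0 (limma, adjusted p = 0.299). This difference was -0.19 with normexp and -0.60 without control rat 2. Ncr1, the activating receptor NKp46, gave 2.11, 3.33 and 2.62 in the control rats, 3.13, 3.55 and 3.67 in the TBI rats, and 3.06, 1.31, 1.32 and 2.01 in the MASM + TBI rats. All TBI rats were above all MASM + TBI rats, and only TBI rats 2 and 3 were well above background, with signals under the weakest that counted on any control or MASM + TBI array, so no fold is given for it. Ncr3, the activating receptor NKp30, lay between 1.29 and 1.30 in the control rats, between 1.56 and 1.98 in the TBI rats, and at 1.27, 1.29 and 1.31 in MASM + TBI rats 1 to 3. Only MASM + TBI rat 4, at 4.93, was well above background for Ncr3, and no fold is given for this gene either. Log2 differences of Ncr1 and Ncr3 printed below are differences between signals mostly at background.

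Fasl, the ligand of Fas, gave 4.88, 5.63 and 5.03 in the control rats, 3.85, 5.68 and 5.54 in the TBI rats, and 4.31, 4.11, 4.27 and 3.40 in the MASM + TBI rats. It was well above background on every array except that of MASM + TBI rat 4, and the MASM + TBI rats were all below the control rats. The Fasl probe was printed on 10 spots per array, and the SD over these spots was between 0.14 and 0.47 log2 units. Not all spots were well above background in TBI rat 1 (8 of 10), in MASM + TBI rats 1 to 3 (8, 6 and 5 of 10) and in MASM + TBI rat 4 (2 of 9 kept). The log2 difference between MASM + TBI and control rats was -1.16, with a 95% interval from -2.19 to -0.12 and an adjusted p of 0.239 (limma), and it was -0.23 with a normexp background correction.

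The comparison of MASM + TBI with control rats shows how pretreated and irradiated liver differed from untreated liver. The estimate was lower in MASM + TBI rats for 9 of the 10 genes, with Ncr3 as the exception, and for 8 of them every MASM + TBI rat was below every control rat. Such a complete separation downwards was found for 8.9% of all 40945 probes. The median log2 difference of the 10 genes was -1.32, beside 0.0024 for all probes, and -0.705 with normexp. A call required an adjusted p under 0.05 and a change of 1.5-fold or more, and every count at an unadjusted p under 0.05 given here, for the 10 genes, the lists and all probes, required the same fold. What is called the methods' t-test here is the simple test named in the results of the study and not in its array methods, run on each probe with unequal variances. With limma 0 of the 10 genes were called, while 1.43% of all probes were called lower. At an unadjusted p under 0.05 and this fold limma gave 7 of the 10 genes as lower (the 4 granzymes, Prf1, Nkg7 and Fasl) beside 4.55% of all probes, and the methods' t-test gave 0 genes after adjustment and 7 before it. The smallest of these unadjusted p values was 0.00192 for Gzmm and the largest 0.0328 for Fasl. With a rat left out the limma count of 7 ran from 3, without control rat 2, to 8, and it was 4 without MASM + TBI rat 4. The share of all probes at an unadjusted p was not counted with a rat left out or for the methods' t-test. After adjustment 0.737% and 0.857% of all probes were called lower without control rat 2 and without MASM + TBI rat 4. The count of 0 depended on the fit. With 5 alternative settings 1 or 2 genes were called, Gzmm in each of them with an adjusted p between 0.0213 and 0.044, joined by Nkg7 (0.0402) with the slide as a random block and by Gzmk (0.0303) with only these groups in the fit. The correlation within slides was estimated at -0.133 for the random block, which raised the number of calls among all probes from 963 to 1805. In the 5 settings between 0.738% and 2.76% of the probes tested were called lower. Leaving out TBI rat 1, which bears only on the estimate of the spread here, gave 3 called genes, Gzmb, Gzmk and Gzmm, with adjusted p values of 0.0441, 0.0359 and 0.0193, beside 1.62% of all probes called lower.

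The comparison of TBI with control rats addresses what irradiation alone did. Here too the 10 genes are described by counts and medians, and a shared shift was not tested. The estimate was lower for 7 genes and higher for 3 (Gzmk, Ncr1 and Ncr3), and the median log2 difference was -0.35 beside -0.029 for all probes. Without TBI rat 1 only 2 estimates were lower and the median was 0.12, and it was -0.71 without TBI rat 2, -0.098 without control rat 2 and -0.17 with normexp. With limma 0 of the 10 genes were called lower or higher, while 2.49% of all probes were called lower. At an unadjusted p under 0.05 and the same fold the count was 0 with limma and 0 with the methods' t-test, beside 6.09% of all probes lower with limma. Without TBI rat 2 the limma count was 1, beside 1.5% of all probes called lower after adjustment. For 0 of the 10 genes were all TBI rats below all control rats, beside 19% of all probes. The log2 differences were -0.43 for Gzma, -0.64 for Gzmb, 0.22 for Gzmk and -0.66 for Gzmm, with intervals that all contained 0. For Gzmb the interval ran from -2.04 to 0.76. For some genes the direction turned with the rat left out. Without TBI rat 1 the differences were 0.026 for Gzma, 0.065 for Gzmb, 0.16 for Prf1, 0.076 for Nkg7 and 0.43 for Fasl, that of Gzmk was 0.98, and those of Gzmm (-0.084) and Klrd1 (-0.19) were still below 0. Without TBI rat 2 that of Gzmk was -0.39, and without control rat 2 that of Fasl was 0.063. Ncr1 moved from 0.76 to -0.013 with a normexp background correction.

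The comparison of MASM + TBI with TBI rats asks what MASM changed in irradiated animals. The estimate was lower in MASM + TBI rats for 9 of the 10 genes, again with Ncr3 as the exception, and the median log2 difference was -1.10 beside 0.038 for all probes, and -0.60 with normexp. The groups overlapped for 9 genes. TBI rat 2 was above all MASM + TBI rats for 8 of the 8 genes above background, TBI rat 3 for 7 and TBI rat 1 for 0, beside 22.9%, 26.8% and 24.3% of all probes. With limma 0 of the 10 genes were called, while 0.625% of all probes were called lower. At an unadjusted p under 0.05 and the same fold limma gave 4 genes as lower (Gzmk, Gzmm, Nkg7 and Ncr1) beside 4.83% of all probes, and the methods' t-test gave 1 before and 0 after adjustment. This limma count was 8 without TBI rat 1, and 2 without TBI rat 2 or TBI rat 3. The share of all probes at an unadjusted p was not counted with a rat left out. After adjustment 1.67%, 0.579% and 1.69% of all probes were called lower without TBI rats 1, 2 and 3. Ncr1 was the only gene of the 10 for which all MASM + TBI rats were below all TBI rats, a separation found for 5.88% of all probes. On no MASM + TBI array was Ncr1 above background, so this order rests on signals at background. Its adjusted p was 0.149 with limma and ran from 0.0399 to 0.827 over the other settings, with a call when arrays were scaled to the 75th percentile and a log2 difference of -0.028 with normexp. Without TBI rat 1 there were 3 called genes, Gzmk at -2.52 (adjusted p = 0.0119), Gzmm (adjusted p = 0.0335) and Fasl at -1.58 (adjusted p = 0.0414), while the share of all probes called lower was 1.67%. Without TBI rat 2 the median of the 10 genes was -0.76 and the Klrd1 difference was 0.050. Each pair of these comparisons shares a group of rats, so none of them is independent of the others.

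**Figure D2:**
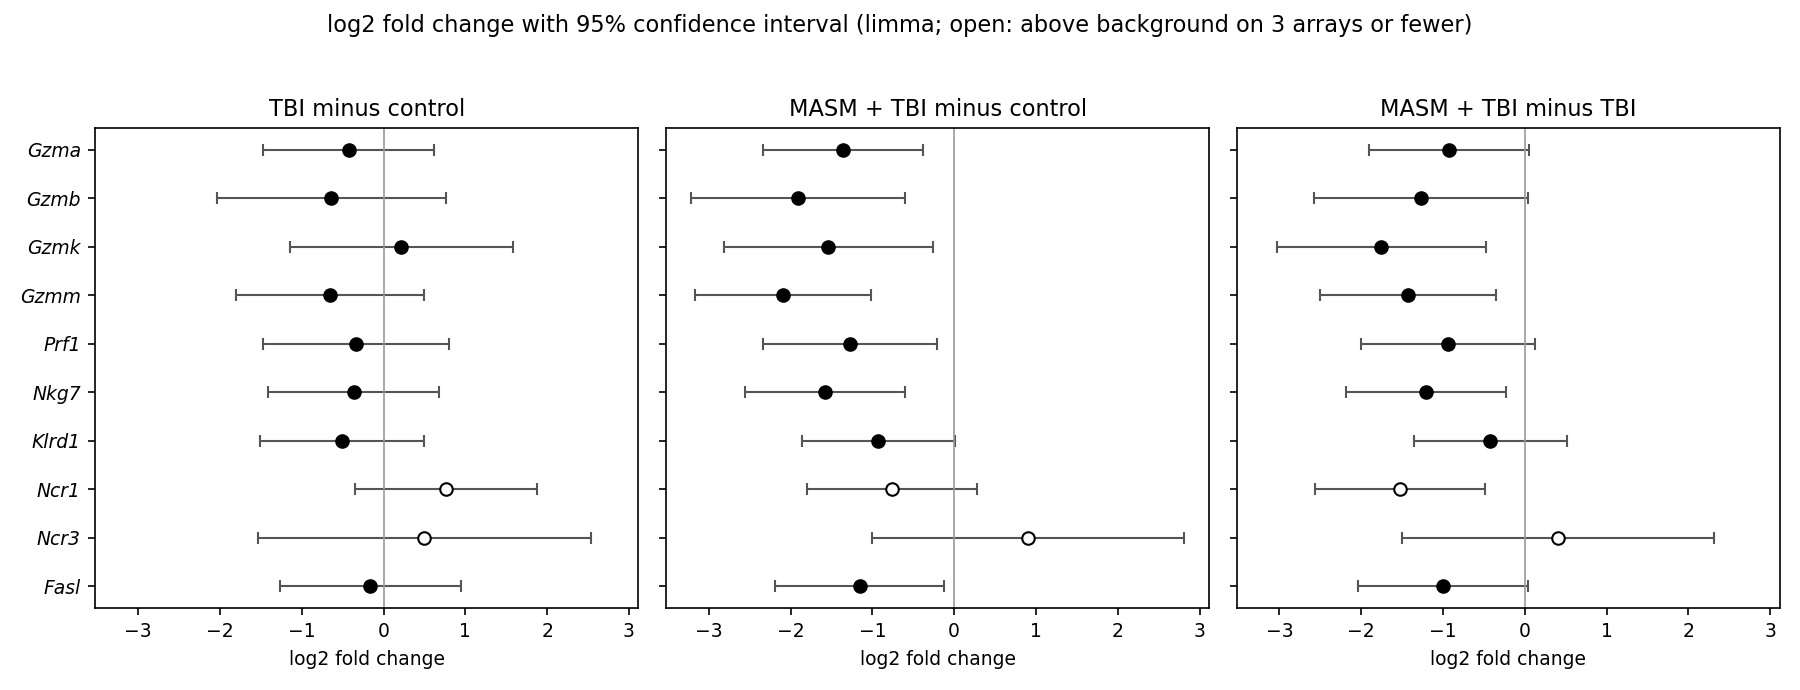
Log2 fold change (horizontal axis) of the 10 genes (vertical axis) in the comparisons of TBI with control, MASM + TBI with control and MASM + TBI with TBI, as points with 95% confidence intervals from limma, open for Ncr1 and Ncr3. The intervals lie below 0 for 7 genes against control, from -2.09 for Gzmm to -1.16 for Fasl, and for 4 genes against TBI.

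The arrays were spread unevenly over slides, each with a scan of its own. All control arrays shared slide 1 with MASM + TBI rat 3, the TBI arrays had slide 2 to themselves, and the remaining MASM + TBI arrays were on slide 3. TBI and its slide therefore cannot be told apart, while MASM + TBI and control could be compared within slide 1. There, MASM + TBI rat 3 was below all 3 control rats for 9 of the 10 genes, among them Klrd1 and Ncr1 at background in that rat, beside 25.2% of all probes. Its log2 distance from the control mean was -1.27 for Gzma, -1.83 for Gzmb, -1.66 for Gzmk, -2.17 for Gzmm, -1.49 for Prf1, -1.61 for Nkg7 and -0.91 for Fasl. For the MASM + TBI rats of slide 3 the same distances were -1.39, -1.94, -1.50, -2.06, -1.20, -1.56 and -1.24. No distance is given for Klrd1, Ncr1 and Ncr3, which were not well above background in MASM + TBI rat 3. With slide as a fixed block, the median log2 difference of the 10 genes was -1.43, with Klrd1, Ncr1 and Ncr3 included. This block leaves a single MASM + TBI rat to carry the comparison, so no call of a gene is read from it.

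The 8 genes above background moved together from rat to rat. Centred on its own mean over the 10 rats and averaged over the 8 genes, the log2 signal was 0.18, 1.26 and 0.66 in the control rats, -0.74, 1.14 and 0.62 in the TBI rats, and -0.38, -0.64, -0.81 and -1.29 in the MASM + TBI rats. The same rats were at the ends of their groups for each gene. Control rat 1 and TBI rat 1 were the lowest of their groups for 8 of 8 genes, and control rat 2 and TBI rat 2 the highest for 8 of 8, beside 26.7%, 26.4%, 28.7% and 25.7% of all probes in this order. MASM + TBI rat 4 was the lowest of its group for 8 genes and MASM + TBI rat 1 the highest for 7, with Gzma as the exception, beside 30.2% and 17.4% of all probes. TBI rat 1 was below all control rats for 8 of 8 genes, and MASM + TBI rat 4 was below all TBI rats for 8 of 8, beside 37.5% and 20.1% of all probes. As a description over 10 rats that share slides and groups, Pearson's r between pairs of the 8 genes ran from 0.80 to 0.99 with a median of 0.94 (28 pairs). After group means were subtracted the median was 0.92, so the likeness was also present among rats of the same group. Ncr1 had an r of 0.66 and Ncr3 of -0.48 with the mean of the 8 genes, and both rest largely on signals at background.

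Among 9570 other genes, those with the highest r to the mean of the 8 genes over the 10 rats were Arhgap15 (0.977), Zap70 (0.977), Unc119 (0.977), Dennd1c (0.975) and Slfn2 (0.974). Zap70, a kinase next to the T cell receptor that NK cells also contain, gave 6.78, 7.75 and 7.11 in the control rats, 5.78, 7.16 and 6.84 in the TBI rats, and 6.03, 6.01, 5.54 and 5.41 in the MASM + TBI rats. It was low in TBI rat 1 and lower in all MASM + TBI rats than in all control rats, like the 8 genes. Its choice by r over the same rats favours this likeness. Dennd1c gave group means of 8.19, 8.15 and 7.30 in control, TBI and MASM + TBI rats, and Slfn2 of 8.85, 8.66 and 7.86.

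Other genes of NK cells, 26 of 41 listed having a probe and 14 being above background on all arrays of a group, showed a similar order of rats. Their mean centred log2 signal was 0.047, 1.16 and 0.57 in the control rats, -0.56, 0.66 and 0.24 in the TBI rats, and -0.32, -0.30, -0.54 and -0.95 in the MASM + TBI rats. Against control rats, 2 of the 26 were called lower in MASM + TBI rats and 0 higher, with a median log2 difference of -0.81. Xcl1, a chemokine released by NK cells that draws in dendritic cells, fell 2.90-fold from 7.03, 8.12 and 6.95 in the control rats to 5.88, 6.11, 5.90 and 5.42 (limma, adjusted p = 0.0376). Klrk1, the activating receptor NKG2D, fell 3.11-fold from 5.78, 6.99 and 6.65 to 5.02, 4.95, 4.84 and 4.51 (limma, adjusted p = 0.0495). In TBI rats Xcl1 was at 5.77, 6.32 and 6.24 (adjusted p = 0.0628 against control), below all control rats, where Gzma, Gzmb, Gzmk and Gzmm of TBI rats 2 and 3 were not. For the whole list the TBI comparison gave 0 calls and a median of -0.30, and MASM + TBI against TBI gave 0 calls and -0.40, with 5 and 4 genes lower at an unadjusted p under 0.05, beside 13 in MASM + TBI against control rats (limma). Tyrobp and Fcer1g, signalling adaptors of NK cells and of macrophages, were the brightest of the list. Klrb1b, Klrh1, Cd226, Cd96, Il18rap, Ifng and Txk were above background on no array.

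The other serine proteases of the chromosomal region of Gzmb and the mast cell chymases were measured by probes for 10 of 17 listed genes. Of these 10, 3 were called lower in TBI against control rats and 3 in MASM + TBI against control rats, with medians of -1.11 and -1.37. Between MASM + TBI and TBI rats 0 were called (median -0.34), with 2 lower and 1 higher at an unadjusted p under 0.05 (limma). For a group without any array above background, the fold is given as a bound where all arrays of the other group were above background. The bound sets the brighter mean against the mean of the weakest signals counted as well above background on the dim arrays, or the probe's own where higher. Mcpt1, a chymase of mast cells, was at 6.46, 6.90 and 6.59 in the control rats and between 1.68 and 2.82 in all irradiated rats, at least 7.01-fold lower in MASM + TBI rats (adjusted p = 0.000478). Mcpt8l2 fell in both irradiated groups (adjusted p = 0.0464 in TBI and 0.00963 in MASM + TBI rats), and so did the chymase Cma1, by at least 2.37-fold and 1.19-fold (0.00283 and 0.02), whose second, dimmer probe was not called. Gzmc, the brightest of the list and a granzyme of cytotoxic cells, gave 7.65, 9.48 and 8.62 in the control rats, 6.41, 8.26 and 7.54 in the TBI rats, and 6.47, 6.55, 6.71 and 5.34 in the MASM + TBI rats (adjusted p = 0.0727 for MASM + TBI against control). Mcpt4 and Ctsg were above background on no array.

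Genes that load and release granules, such as serglycin, cathepsin C and Rab27a, are used by many cell types, and all 14 had a probe. Of these, 1 was called lower in MASM + TBI against control rats (Stx11, which was not well above background in either group) and 0 in both other comparisons. Their medians were 0.036 for TBI against control, -0.23 for MASM + TBI against control and -0.20 for MASM + TBI against TBI, with 0, 2 and 2 genes lower at an unadjusted p under 0.05 (limma), and Ctsb was the brightest. On the side of the target cell, 12 of 15 listed death ligands, receptors and granzyme substrates had a probe. Fas, the receptor of Fasl, was the only one called, rising from 9.60, 9.95 and 9.43 in the control rats to 10.42, 10.95 and 10.93 in the TBI rats (2.16-fold, limma, adjusted p = 0.0166) and to 10.80, 10.99, 10.57 and 10.73 in the MASM + TBI rats (2.17-fold, adjusted p = 0.0173). Its other probe was called in the same direction in both comparisons. The difference between the irradiated groups was 0.0067 for Fas, while its ligand Fasl was 1.995-fold lower in MASM + TBI than in TBI rats (adjusted p = 0.315), a log2 difference that ran from -1.58 to -0.67 with a rat left out and was -0.23 with normexp. The medians of this list were 0.028, 0.041 and -0.022 in the 3 comparisons, the brightest gene was Apex1, and none of its 12 genes was below background on all arrays. Of the cytokines and receptors on which NK cells depend, 15 of 19 had a probe, with medians of -0.080, -0.37 and -0.28. S1pr5, a receptor by which NK cells leave tissues, was the only gene called, lower after TBI than in control rats (limma, adjusted p = 0.02). Its signals were 3.81, 4.44 and 4.12 in the control rats and 1.46, 2.91 and 1.96 in the TBI rats. S1pr5 was above background on 2 of the 3 control arrays and on no TBI array, so no fold is given. Il18, the brightest, was not called. Il2, Il12a, Il12b, Il18rap and Cxcr6 were above background on no array.

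Markers of T cells, B cells, Kupffer cells, mast cells and leukocytes as a whole also had medians below 0 in MASM + TBI against control rats, and their part in the result was not tested. Of the T cell markers, 19 of 23 had a probe, 6 were called lower in TBI and 5 in MASM + TBI rats against control, and 1 in MASM + TBI against TBI rats, with medians of -0.62, -1.15 and -0.011. Cd3e, which was above background on no array, is among the calls in both comparisons with control. At an unadjusted p under 0.05, 2 of the 19 were higher in TBI than in control rats (limma). Of these markers, 14 were above background on all arrays of a group. Their summed linear signal was 1074, 1610 and 1352 in the control rats, 658, 878 and 955 in the TBI rats, and 698, 752, 467 and 612 in the MASM + TBI rats. The summed signal of these 14 T cell markers was below that of every control rat in all 3 TBI rats, whereas that of the 8 genes was 1402, 4637 and 3410 in the TBI rats beside 2476, 5511 and 3865 in the control rats. Cd3g gave 7.07, 7.31 and 7.09 in the control rats and 2.84, 4.14 and 3.69 in the TBI rats (adjusted p = 0.00381), and Cd6 fell in both irradiated groups (adjusted p = 0.00825 and 0.01). Cd8b, which cytotoxic T cells carry, gave 5.98, 6.06 and 6.85 in the control and 6.93, 7.51 and 6.78 in the TBI rats. It fell 4.04-fold from TBI to MASM + TBI rats, at 4.74, 4.89, 5.47 and 5.15 (limma, adjusted p = 0.0135). Cd8a overlapped between these groups, at 3.63, 5.32 and 5.57 in TBI and 4.36, 3.62, 4.30 and 3.60 in MASM + TBI rats. Cd2 went the other way from Cd8b, higher in MASM + TBI than in TBI rats (limma, adjusted p = 0.0736). Its signals were 4, 4.67, 3.18 and 2.51 in the MASM + TBI rats and 1.28, 1.28 and 1.93 in the TBI rats. It was above background on 2 of the 4 MASM + TBI arrays and on no TBI array, so no fold is given. It was not called in this comparison. Every MASM + TBI rat was below every TBI rat for 1 of the 19 markers, beside 5.88% of all probes, and above for 2. No share of all probes was counted for complete separations upwards, here or in the lists below. At an unadjusted p under 0.05, 4 of the 19 markers were lower and 1 was higher (limma). The brightest marker, Cd3d, was not called, and Cd5, Cd28 and Trat1 were also above background on no array. Of the B cell markers, 10 of 14 had a probe, 1 was called lower in TBI and 2 in MASM + TBI rats, with medians of -0.55, -0.82 and -0.32. Among them Cd79b fell after TBI by at least 4.98-fold (limma, adjusted p = 0.00484), and Cd22 was the brightest. For 5 of the 10 every TBI rat was below every control rat, beside 19% of all probes, and for 2, Cd22 and Vpreb3, above. Vpreb3 gave 6.16, 6.47 and 6.38 in the control rats and 7.70, 7.77 and 7.18 in the TBI rats. The 7 above background had summed signals of 551.4, 502.5 and 491.4 in the control rats and 437.8, 577.6 and 533.6 in the TBI rats.

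Kupffer cell and macrophage markers, 11 of 15 with a probe and all 11 above background, had 0 called genes in each comparison with limma. Their medians were 0.28 for TBI against control, -0.36 for MASM + TBI against control and -0.74 for MASM + TBI against TBI. In this order 0, 0 and 7 of these markers were lower and 1, 0 and 0 higher at an unadjusted p under 0.05 (limma). Their summed signal was 94290, 144500 and 120800 in the control rats, 99090, 182100 and 146600 in the TBI rats, and 93420, 98750, 81380 and 76910 in the MASM + TBI rats, with Clec4f the brightest. As for the 8 genes, TBI rat 1 was the lowest of its group. Of the genes of leukocytes as a whole, 10 of 11 had a probe and 9 were above background on all arrays of a group. These 9 followed a similar order, with mean centred log2 signals of 0.084, 0.71 and 0.40 in the control rats, -0.31, 0.63 and 0.53 in the TBI rats, and -0.35, -0.40, -0.64 and -0.66 in the MASM + TBI rats. Coro1a, an actin-binding protein of leukocytes, was called lower in TBI (2.45-fold, adjusted p = 0.0259) and in MASM + TBI rats (4.78-fold, adjusted p = 0.00275) against control. The list medians were 0.16, -0.67 and -0.83, with 2, 5 and 7 genes lower at an unadjusted p under 0.05 (limma) and Ptpn6 the brightest. Mast cell markers, 9 of 10 with a probe, had 3 genes called lower in each comparison with control and 1 against TBI, with medians of -0.96, -0.65 and 0.20, Tpsab1 as the brightest and Kit, Ms4a2 and Fcer1a above background on no array, although Kit is among the calls in TBI against control rats. Neutrophil markers, 10 of 12 with a probe, had 0 called genes and medians of 0.45, 0.15 and -0.18. At an unadjusted p under 0.05, 0, 0 and 1 of them were lower and 1, 0 and 0 higher (limma). The mean centred log2 signal of the 3 that were above background had another order of rats, lowest in control rat 2 at -0.62 and highest in MASM + TBI rat 1 at 0.61. S100a9 was the brightest of them, and Elane, Ctsg and Mmp8 were above background on no array. All 10 hepatocyte genes stayed uncalled in each comparison, with medians of 0.0063, 0.077 and 0.055, 0 lower at an unadjusted p under 0.05 and a fold of at least 1.5 (limma) and Tf as the brightest. At that p and fold 1 of them was higher in MASM + TBI than in control rats. Every MASM + TBI rat was above every control rat for 4 of the 10 and below for 2, the latter beside 8.9% of all probes.

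Within slide 1, where MASM + TBI rat 3 could be set against the control rats, the median log2 difference was -1.43 for the 10 genes and -0.90 for the other NK cell genes. It was -1.36 for T cell, -1.59 for B cell, -0.55 for Kupffer cell, -0.46 for mast cell and -0.069 for neutrophil markers. Genes of leukocytes as a whole had a median of -0.91 and hepatocyte genes of 0.055. For granule serine proteases it was -1.46, for granule loading and release -0.25, for death ligands and their targets 0.084, and for cytokines and receptors of NK cells -0.51.

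**Figure D3:**
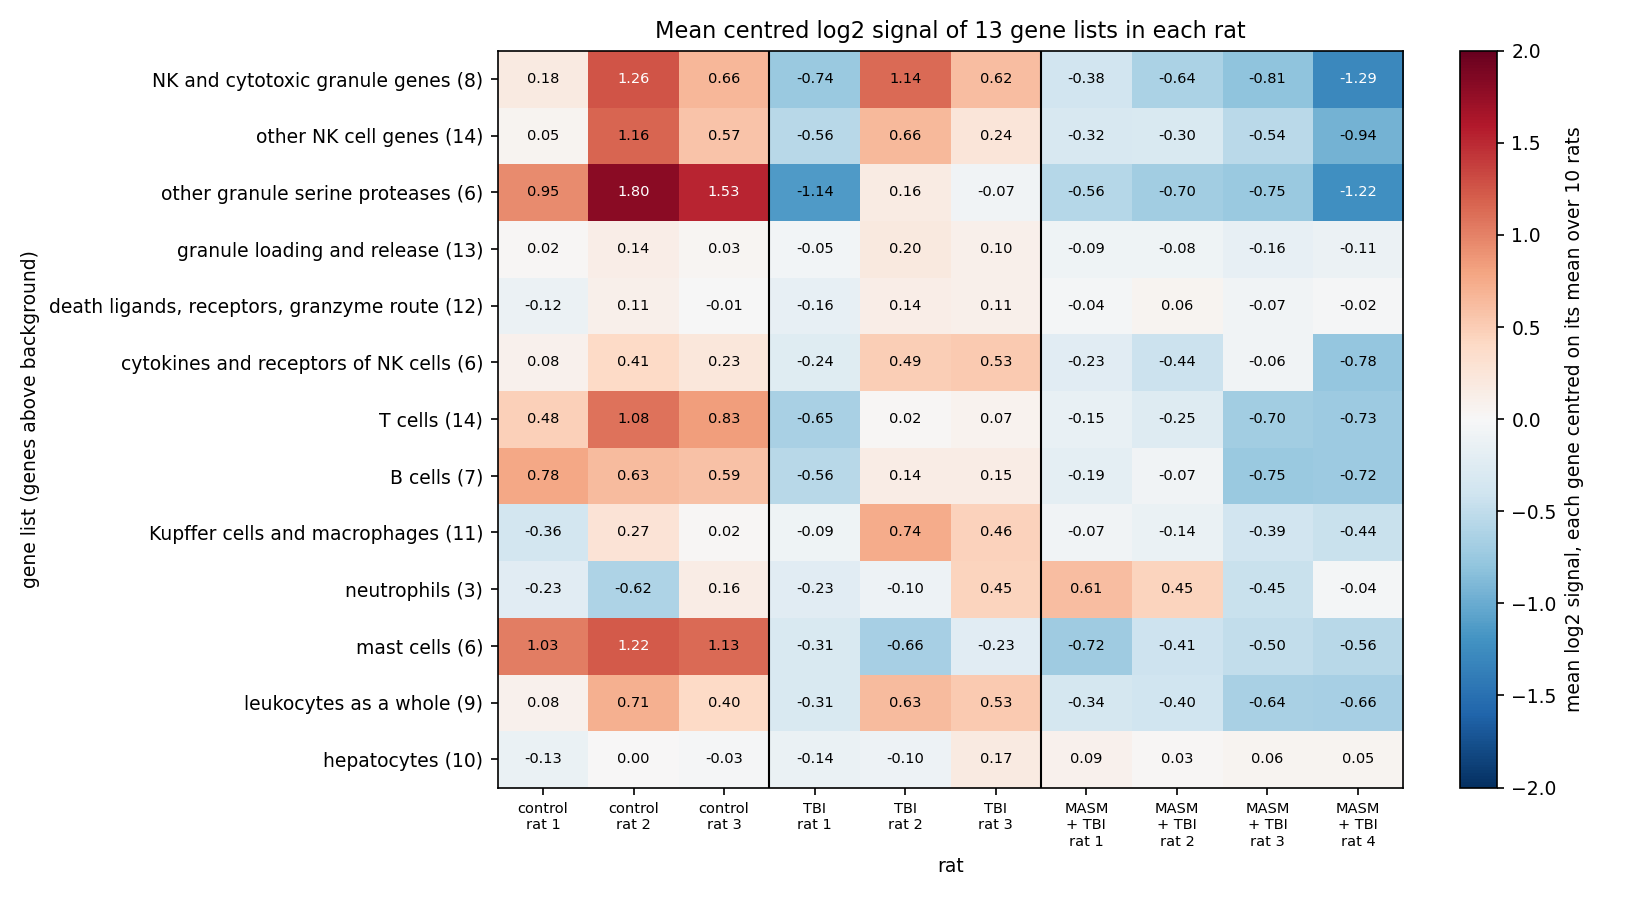
Mean centred log2 signal of 13 gene lists (vertical axis, with the number of genes above background) in each of the 10 rats (horizontal axis), each gene centred on its mean over the rats, red above and blue below that mean. The NK and cytotoxic granule genes run from 1.26 in control rat 2 to -1.29 in MASM + TBI rat 4, while hepatocyte genes stay between -0.14 and 0.17.

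The promoters of the 10 genes were searched for short motifs of transcription factor families that act in NK cells. The motifs were the T-box core AGGTGT, bound by T-bet and eomesodermin, and the RUNX core TGTGGT, both on either strand, and they shared no bases. RefSeq promoter sequences, 250 bases before to 50 after the start on build GRCr8, were matched for 8 of the 10 genes, without Klrd1 and Ncr1 and thus not for the same 8 that were above background. The RUNX core was found in 7 of the 8, beside 17.3% of 33469 promoters of the table, the T-box core in 2 of the 8 (Gzma and Fasl), beside 13.6%, and both in 1 (Gzma), beside 2.69%. Gzma and Gzmk lie next to each other on chromosome 2, with 0 genes between them in the gene table, and each carries a RUNX core. A match is a description of these letters and neither a site nor a cause. All matches to either motif are shown, 5′ to 3′ on the strand of the gene with the motif or its reverse complement in capitals, and with the position of the first base of the motif relative to the start.
Gzma, T-box core, chr2:46485763-46485788, minus strand, position -82: ttccagctctACACCTggaagtttga
Gzma, RUNX core, chr2:46485732-46485757, minus strand, position -51: aagaacggaaACCACAtcctttgtgc
Gzmb, RUNX core, chr15:34462671-34462696, minus strand, position -217: ggaccctaatACCACAtgctatgaac
Gzmb, RUNX core, chr15:34462640-34462665, minus strand, position -186: cctatgctttTGTGGTcctgcaatgg
Gzmb, RUNX core, chr15:34462581-34462606, minus strand, position -127: tgggttctgcTGTGGTtacttcatgg
Gzmk, RUNX core, chr2:46582180-46582205, minus strand, position -180: accctcatccACCACAcactgacagc
Gzmm, RUNX core, chr7:10667335-10667360, minus strand, position -94: gctttctaaaACCACAcagcagggtg
Prf1, RUNX core, chr20:29788896-29788921, plus strand, position -134: gggacctgtgACCACAatctgggggc
Nkg7, RUNX core, chr1:102981381-102981406, plus strand, position -106: gccctcccccACCACAcaggagagga
Ncr3, RUNX core, chr20:3648420-3648445, minus strand, position -86: aggtgagagaACCACAtcctcgtctc
Fasl, T-box core, chr13:76695555-76695580, minus strand, position -67: aactggagagAGGTGTttcccttgac

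The promoter of Gzma, which held both motifs, is shown whole (chr2:46485647-46485946, minus strand, RefSeq, GRCr8), with the T-box core followed by the RUNX core in capitals.
Gzma promoter: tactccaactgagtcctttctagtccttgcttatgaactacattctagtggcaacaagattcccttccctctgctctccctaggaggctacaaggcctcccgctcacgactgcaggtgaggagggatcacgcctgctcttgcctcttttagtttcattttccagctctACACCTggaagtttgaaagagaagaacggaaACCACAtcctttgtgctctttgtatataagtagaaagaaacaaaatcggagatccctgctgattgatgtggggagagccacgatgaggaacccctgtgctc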

How the data were processed

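RNA from 10 livers, 3 of control, 3 of TBI and 4 of MASM + TBI rats, had been hybridised in a single colour (Cy3) to 4 x 44K whole rat genome arrays. Per the file headers, the deposited intensity of a spot was computed by Feature Extraction 10.7.3.1 on a linear scale, with background and spatial trends removed by the authors and no normalization between arrays, and other columns hold flags (1 or 0) for spots well above background, outliers and saturation. The deposited value table held the same intensities, with a largest difference of 0. Groups and replicate numbers came from the labels. The names that the study prints beneath a heat map put the control arrays under TBI and the reverse; the labels were followed. By the labels, Fas was higher and Cd3g and Mcpt1 were lower in both irradiated groups than in control rats, and with these names exchanged the TBI rats alone would stand apart in these genes.

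Control spots (1639 per array) and outlier spots (76 to 112) were removed, and 0 spots were saturated. Intensities were log2 transformed, quantile normalized as the study's methods state, and spots of the same probe were averaged. Of 41012 probes, 40945 had a value on every array. Spots well above background made up 57.2% to 59.9% on control, 64.1% to 70.1% on TBI and 56.2% to 60.2% on MASM + TBI arrays. Accessions gave 16950 probes 1 of 13426 symbols of the RefSeq table. A gene with several probes is given by the brightest over all arrays.

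Differences were tested with limma 3.58.1 in R 4.3.3 (with the data.table package, version 1.17.8), in a model of 3 group means over the 10 arrays (prior of 1.43 degrees of freedom), with Benjamini-Hochberg adjustment over all probes. A call needed an adjusted p under 0.05 and a fold of at least 1.5, and counts at an unadjusted p under 0.05 needed that fold too. The fit was tested on simulated data. Figures were drawn with matplotlib 3.10.9 in Python 3.11.15.

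The 10 genes and the gene lists were chosen with earlier results of these data known, so lists are described by counts and medians and not tested. Named are the 10 genes, the called genes (at most the 6 with the smallest adjusted p) and the 2 brightest genes of each list, as far as they add to the account, and the 5 genes most alike to the mean of the 10 over the rats, computed on the 8 above background. The lists were other NK cell genes, granule serine proteases, granule loading and release, death ligands and their targets, cytokines and receptors of NK cells, and markers of T cells, B cells, Kupffer cells, neutrophils, mast cells, leukocytes and hepatocytes.

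Alternatives were scaling to the 75th percentile, normexp with an offset of 50 on median pixels (the files hold no mean pixel column), the value table, only probes above background, a trended and robust prior, the methods' t-test (a simple t-test named in the results of the study and not in its array methods, and run here in Welch's form), the mean of a gene's probes, blocks by replicate number and by slide, only the groups compared, and each rat left out. Protein sequences were not described, and the survival, microscopy and real-time PCR of the study were not analysed here.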

Additional observations from a re-analysis of the deposited data

Results flagged for a closer look

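Ncr3 in the MASM + TBI rats stood out because 1 rat was far from the others. MASM + TBI rat 4 was at 4.93 on the log2 scale and was the only rat well above background for Ncr3, while rats 1 to 3 were at 1.27, 1.29 and 1.31. The gap between rat 4 and the nearest rat was 0.99 of the range of the group. Since rats 1 to 3 were not well above background, this ratio says little more than that the gene was above background in rat 4 alone. In all, 23 sets of 4 MASM + TBI values were looked at, and chance alone marks about 1 in 20 such sets. In the same rat the other genes were low, with the lowest value of its group for 8 of the 8 genes above background.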

How the results depend on the processing

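For TBI against control 0 of the 10 genes were called in any setting. For MASM + TBI against control the count of 0 became 1 with normexp (Gzmm, -1.38, adjusted p = 0.0358), 1 with only probes above background, 1 with a trended and robust prior, 2 with the slide as a random block and 2 with only the groups compared, and with a rat left out it ran from 0 to 3. For MASM + TBI against TBI it became 1 with scaling to the 75th percentile and ran from 0 to 3 with a rat left out. Both counts of 3 came without TBI rat 1, for Gzmb, Gzmk and Gzmm against control, where the differences stayed as they were, and for Gzmk, Gzmm and Fasl against TBI, where the differences also grew, for Fasl to -1.58. Directions turned in these cases. For TBI against control, Ncr1 was -0.013 with normexp, and with a rat left out the range was -0.77 to 0.026 for Gzma, -1.05 to 0.065 for Gzmb, -0.39 to 0.98 for Gzmk, -0.74 to 0.16 for Prf1, -0.74 to 0.076 for Nkg7 and -0.49 to 0.43 for Fasl, which was also 0.063 without control rat 2. For MASM + TBI against TBI, Klrd1 ran from -0.73 to 0.050. Ncr3 turned to -0.0021 against control and to -0.50 against TBI without MASM + TBI rat 4, the only rat in which it was above background, and was 1.22 and 0.72 in these comparisons without MASM + TBI rat 1. The cause of the other changes was not tested. Of the remaining values 191, 196 and 190 kept their direction and their side of the threshold for MASM + TBI against TBI, MASM + TBI against control and TBI against control, though many were smaller with normexp, whose offset of 50 draws dim signals together. Against control they were -1.12 for Gzma, -0.83 for Gzmb, -0.58 for Gzmk, -0.87 for Prf1, -1.13 for Nkg7, -0.19 for Klrd1 and -0.23 for Fasl with it, and against TBI -0.79, -0.54, -0.76, -0.66, -0.87, -0.073 and -0.23, with -0.94 for Gzmm.

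The replicate numbers do not pair the rats. Deviations from the group means of same-numbered rats had an r from -0.125 to 0.169 over 9 pairs, 1 of them over 0.1. With the replicate number as a block, which leaves out MASM + TBI rat 4, 0 of the 10 genes were called in each comparison (limma). Of all probes, 1.36%, 0.484% and 0.0342% were called lower for TBI against control, MASM + TBI against control and MASM + TBI against TBI. In the same order, 0, 4 and 5 of the 10 genes were lower at an unadjusted p under 0.05. The share of all probes at that p was not counted with this block. Ncr3 was -0.0021 and -0.50 in this block, in the order MASM + TBI against control and against TBI. Slide as a fixed block could only be estimated for MASM + TBI against control.

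The number of all probes called moved more. For TBI against control it was 1842 (1021 lower), with 6967 (5358 lower) at the 75th percentile, 553 with normexp, 10 with the methods' t-test, 1026 with the replicate block, 4078 with the slide as a random block, 944 with only the groups compared and 914 to 2312 with a rat left out. For MASM + TBI against control it was 963 (584 lower), with 455, 28, 298 and 1805 for normexp, the methods' t-test, the replicate block and the random slide block, 522 (172 lower) with the fixed slide block and 461 to 1041 with a rat left out. For MASM + TBI against TBI it was 570 (256 lower), with 5155 (899 lower) at the 75th percentile, 79 (11 lower) with normexp, 3, 22 and 1401 for the t-test and the replicate and random slide blocks, 255 with only the groups compared and 240 to 1081 with a rat left out.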

Other observations

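The precision of every value is limited by 10 arrays, 3 or 4 in a group. Differences of TBI rats from the others cannot be told apart from their slide. Ncr1 and Ncr3 were mostly not well above background, so their differences rest on signals without a reliable level.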
